A study of Homo sapiens with 18 samples.

Results

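Undifferentiated human embryonic stem cells (hESC) that carry the LIS1+/- genotype were set against LIS1+/+ hESC of the same line, WIBR3. These are 6 of the 18 libraries of the study, taken by their titles: 3 LIS1+/- and 3 LIS1+/+. The other 12 libraries are organoids grown from both genotypes and collected at Day 5 and Day 12, and they are used here to follow genes called in hESC. All libraries were made by MARS-seq, a method that reads transcripts by tags from their 3' ends, here on bulk RNA. The label of the LIS1+/- group gives the genotype only. The sources used here give neither the altered part of LIS1 nor the number of clones. An effect of genotype and one of clone therefore cannot be told apart. All 3 LIS1+/- hESC files carry a 1 in their names, and the meaning of that 1 is not stated.

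LIS1, whose gene symbol is PAFAH1B1, binds the motor cytoplasmic dynein and helps it to assemble into active complexes on microtubules. Through dynein it acts in nuclear movement, spindle positioning and the transport of organelles, and people with a single working copy have lissencephaly, in which the cortex is smooth. Embryonic stem cells divide rapidly and keep the pluripotent state through the transcription factors POU5F1, SOX2 and NANOG and through FGF and Nodal signals. They also rest on an actomyosin cytoskeleton, whose genes are under the control of the serum response factor SRF and its actin-sensing partners, and of the YAP coactivators, which respond to tension and adhesion.

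The gene rows summed to 1839347, 2407301 and 2984093 counts in the LIS1+/- hESC libraries and to 2386061, 1602532 and 1764455 counts in the LIS1+/+ ones. The share of alignments set aside as not unique was 42.8 ± 8.96% in LIS1+/- and 52.9 ± 6.12% in LIS1+/+ hESC (SD, n = 3 each, two-sided exact permutation p = 0.2, where 0.1 is the smallest that 3 against 3 allows). LIS1+/+ replicate 3 stood apart: its levels sloped with gene GC content by -0.0207 log2 per percent GC, while the slopes of the remaining 5 hESC libraries lay between -0.00148 and 0.0131. The first principal component of the 6 libraries, with 37.0% of the variance, placed all LIS1+/- libraries on 1 side (14.7 to 17.3) and all LIS1+/+ libraries on the other (-31.4 to -7.08), with LIS1+/+ replicate 3 at the far end. The labels do not say that libraries of a group are separate cultures, so the spread behind each p-value is that between libraries and may be technical. In bulk RNA, fewer cells of a type and less RNA per cell cannot be told apart.

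The markers of the labelled cell type were present in both groups. POU5F1 had 456 ± 54.3 CPM in LIS1+/- and 517 ± 52.6 CPM in LIS1+/+ hESC (SD, n = 3 each), where CPM is the count relative to the scaled library size. SOX2 had 473 ± 13.5 CPM in LIS1+/- and 507 ± 72.9 CPM in LIS1+/+ hESC, and the RNA-binding protein gene LIN28A 727 ± 129 CPM in LIS1+/- and 854 ± 68.8 CPM in LIS1+/+ hESC. NANOG was low in both, with 4.12 ± 0.734 CPM in LIS1+/- and 7.87 ± 3.13 CPM in LIS1+/+ hESC, and ZFP42 and FGF4 had no count in either group. POU5F1 has processed copies in the genome, so its level is uncertain. Some defining markers of other lineages had no count in any hESC library: SOX17 and HNF4A of endoderm, CDX2, CGA and HAND1 of trophectoderm and mesoderm, LUM of mesenchyme, and KRT5, KRT14 and TP63 of surface ectoderm. A count of 0 says little by itself here, since BMI1 and SNRPN, which many cells express, were also at 0 in all 6 libraries. Other markers of these lineages had counts. The endoderm genes AFP and FOXA2 had 62.4 ± 11.6 CPM in LIS1+/- and 45.6 ± 11.3 CPM in LIS1+/+ hESC and 12.9 ± 5.05 CPM in LIS1+/- and 10.1 ± 3.84 CPM in LIS1+/+ hESC (SD, n = 3 each). GATA4 and VTCN1, of endoderm and amnion, had 11 counts each over the LIS1+/- and 1 count each over the LIS1+/+ libraries, and the keratin gene KRT17 had 15 and 20. The summed levels of 3 lists overlapped between the groups, with 72.9 to 104.8 CPM in LIS1+/- and 54.1 to 90.6 CPM in LIS1+/+ hESC for endoderm, 67.2 to 84.8 CPM and 65.5 to 78.2 CPM for trophectoderm, and 2194 to 2481 CPM and 2309 to 2331 CPM for keratins. Those of neuroectoderm, neural crest, mesenchyme and Nodal targets did not overlap and are given beside the genes they lie with.

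PAFAH1B1 (chr17:2593210-2685615, plus strand, GRCh38) was measured at 61.2, 51.4 and 55.9 CPM in LIS1+/- hESC, against 84.8, 72.1 and 111 CPM in LIS1+/+ hESC. The highest LIS1+/- value was under the lowest LIS1+/+ value. The log2 fold change was -0.67 ± 0.21 (SE), or 62.7% of LIS1+/+ with a 95% interval of 46.8 to 84.1%, and the gene did not pass over all genes (adjusted p = 0.173, quasi-likelihood test of edgeR with Benjamini-Hochberg adjustment, as for every adjusted p below). Its p ranked 209th among the tested genes. In the organoids the log2 fold change was -0.58 ± 0.19 at Day 5 (adjusted p = 0.148) and -0.78 ± 0.20 at Day 12, where it passed (adjusted p = 0.0372). Of the 15 tested partners and regulators of LIS1, 0 passed. The catalytic partner PAFAH1B2 had 396, 372 and 340.1 CPM in LIS1+/- hESC, against 530.5, 458 and 534 CPM in LIS1+/+ hESC (-0.46 ± 0.14, adjusted p = 0.193), and the small GTPase gene CDC42 341, 272 and 252 CPM in LIS1+/- hESC, against 401, 372 and 514 CPM in LIS1+/+ hESC (-0.58 ± 0.19, adjusted p = 0.223). In both genes the groups did not overlap. In 1 partner, BICD1, all LIS1+/- libraries lay above (0.51 ± 0.29, adjusted p = 0.529). CLIP1 was also positive, with overlap (0.82 ± 0.27, adjusted p = 0.223). Of the 15 values 5 were positive, and the median was -0.07. Of 22 tested dynein and dynactin subunits 0 passed, and their median log2 fold change was 0.05, against 0.03 over all genes. The light intermediate chain DYNC1LI1 had 152, 121 and 141 CPM in LIS1+/- hESC, against 169.5, 168 and 225 CPM in LIS1+/+ hESC (-0.45 ± 0.19, adjusted p = 0.357). It was the 1 subunit with all LIS1+/- libraries below (7.69% of all tested genes). In 3 subunits, DCTN1 and DCTN5 among them, all lay above (10.6% of all tested genes), and 15 of the 22 values were positive. Of 29 tested genes around LIS1 in 17p13.3, 0 passed and the median was 0.04.

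Of 12215 tested genes 60 had an adjusted p under 0.05 (0.491%) and are called changed, 36 higher (0.295%) and 24 lower (0.196%) in LIS1+/- hESC. In all 60 the libraries of the groups did not overlap, which was so for 18.3% of all tested genes, 10.6% higher and 7.69% lower. The filter used all 6 groups, so the tested genes include some near 0 in hESC. MEOX1, for example, had 0, 0 and 3 counts in LIS1+/- and 0 in each LIS1+/+ hESC library. With only hESC libraries fitted, 9761 genes were tested. Genes near 0 can hardly separate, so these shares may be lower than among genes expressed in hESC. At an unadjusted p under 0.05 there were 1367 genes. Of the 60, 14 passed whichever hESC library was omitted: ACTA1, CDKN2A, COL2A1, CTNNBIP1, DPYSL5, FLNC, HES4, LYPD1, PCDHB2 and REC8 among the higher, and PIM2, POLE4, POLR3K and TCEAL5 among the lower. The count of calls fell to 41, 22 and 21 without LIS1+/- replicate 1, 2 or 3, and to 21, 35 and 30 without LIS1+/+ replicate 1, 2 or 3. No called gene changed sign in any of these fits. Where the groups do not overlap, leaving out 1 library can hardly change a sign, so this says little about stability.

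**Figure D1:**
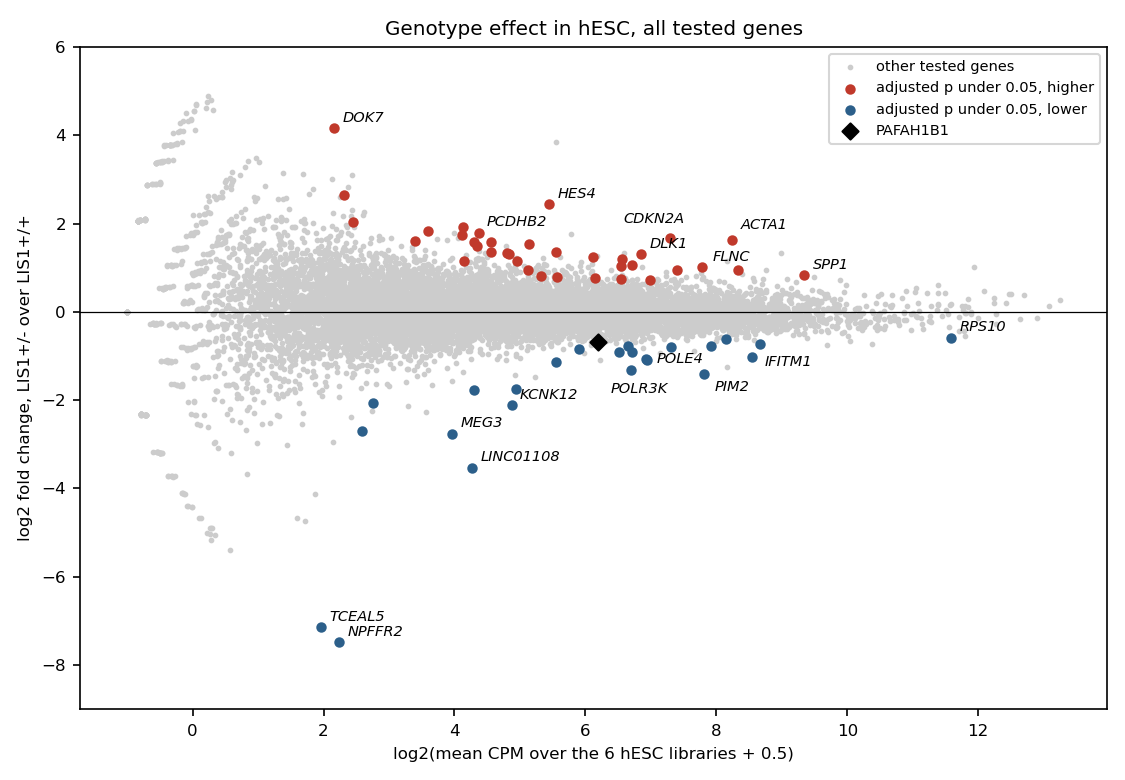
Every tested gene by its mean level over the 6 hESC libraries (x axis, log2 of CPM plus 0.5) and its log2 fold change, LIS1+/- over LIS1+/+ (y axis). Red and blue points are the 36 genes called higher and the 24 called lower, and the black diamond is PAFAH1B1, at -0.67. The plotted values of TCEAL5, NPFFR2 and DOK7 depend on the prior count of the fit.

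The gene with the smallest p encodes a muscle actin. ACTA1 (chr1:229431245-229434098, minus strand), the actin of skeletal muscle and a classic target of SRF, had 496, 449 and 427 CPM in LIS1+/- hESC, against 159, 157 and 127 CPM in LIS1+/+ hESC. The lowest LIS1+/- library was far above the highest LIS1+/+ one, a 3.10-fold difference (1.63 ± 0.19 on the log2 scale, adjusted p = 7.48e-05). ACTA1 shares coding sequence with other actins, so its level depends on how reads were assigned. FLNC, filamin C, which cross-links actin in muscle, had 288, 281 and 311 CPM in LIS1+/- hESC, against 145, 159 and 132 CPM in LIS1+/+ hESC. It was 2.02-fold higher (1.01 ± 0.18, adjusted p = 0.00575).

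Other genes of the contractile apparatus lay on the same side without passing. Of 20 tested SRF targets and muscle actins, 1 passed (ACTA1). In 15 all LIS1+/- libraries lay above all LIS1+/+ libraries and in 0 below (10.6% and 7.69% of all tested genes). The median log2 fold change was 0.46, against 0.03 over all genes. The calponin gene CNN1 had 402, 389 and 393 CPM in LIS1+/- hESC, against 182, 213 and 139 CPM in LIS1+/+ hESC (1.15 ± 0.28, adjusted p = 0.0769). The myosin light chain gene MYL9 had 944, 914 and 868 CPM in LIS1+/- hESC, against 517, 648 and 405 CPM in LIS1+/+ hESC (0.80 ± 0.19, adjusted p = 0.0579). The vinculin gene VCL, of cell adhesions, had 2360.0, 2442 and 2466 CPM in LIS1+/- hESC, against 1621, 1835 and 1886 CPM in LIS1+/+ hESC (0.44 ± 0.13, adjusted p = 0.161). TAGLN, a marker of smooth muscle, had 5259 ± 586 CPM in LIS1+/- and 2607 ± 708 CPM in LIS1+/+ hESC (SD, n = 3 each, 1.01 ± 0.32, adjusted p = 0.223), and the cytoplasmic actin gene ACTB 3307 ± 151 CPM in LIS1+/- and 2443 ± 303 CPM in LIS1+/+ hESC (0.44 ± 0.14, adjusted p = 0.213). SRF itself had 254 ± 21.6 CPM in LIS1+/- and 239.8 ± 18.6 CPM in LIS1+/+ hESC (0.08 ± 0.17). In CNN1 and MYL9 the lowest value was that of LIS1+/+ replicate 3, the library with the GC slope. With the GC trend removed, 12 of the 20 members had all LIS1+/- libraries above (8.86% of all genes) and the median was 0.41, and without that library the median was also 0.41.

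The promoter of ACTA1 is shown because it holds the element that SRF binds, the CArG box, in capitals. It covers chr1:229434045-229434344 on the minus strand of GRCh38.p14, from 250 bases before to 50 after the start annotated by RefSeq, which is also the source of the promoters below.
ACTA1: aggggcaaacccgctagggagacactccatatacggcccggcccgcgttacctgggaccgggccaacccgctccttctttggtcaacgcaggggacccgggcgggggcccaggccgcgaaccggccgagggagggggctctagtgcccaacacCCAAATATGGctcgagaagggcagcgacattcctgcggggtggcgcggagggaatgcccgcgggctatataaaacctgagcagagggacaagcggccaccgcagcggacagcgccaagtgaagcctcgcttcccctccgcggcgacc
A CArG box, searched on both strands, is present in 1.29% of all 35116 promoter windows of this length. A gene can have several windows. Of the genes called higher 31 have a window in the RefSeq table, and 2 of them hold a CArG box, while of the 18 called lower with a window 0 do. Among tested genes with a window the share is 1.62%.

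Of 13 tested YAP targets and matricellular proteins, 2 passed, CYR61 and SPP1, both higher. CYR61, a matricellular protein and a textbook target of YAP, had 419.9, 419.7 and 439 CPM in LIS1+/- hESC, against 201, 210.4 and 248 CPM in LIS1+/+ hESC. It was 1.94-fold higher (0.95 ± 0.21, adjusted p = 0.0358). SPP1, osteopontin, had 912, 814 and 761 CPM in LIS1+/- hESC, against 421, 468 and 514 CPM in LIS1+/+ hESC, a 1.77-fold difference (0.83 ± 0.16, adjusted p = 0.0107). In 7 of the 13 all LIS1+/- libraries lay above (CTGF, EDN1, AMOTL2, AJUBA and ANKRD1 were the others) and in 0 below. Of all tested genes 10.6% lay above and 7.69% below in this way. The median was 0.61, or 0.50 with the GC trend removed. CTGF had 524 ± 40.8 CPM in LIS1+/- and 313 ± 63.7 CPM in LIS1+/+ hESC (SD, n = 3 each, 0.75 ± 0.21, adjusted p = 0.140), and AMOTL2, which feeds back on YAP, 174, 173 and 168 CPM in LIS1+/- hESC, against 119.5, 96.2 and 122 CPM in LIS1+/+ hESC (0.61 ± 0.15, adjusted p = 0.0630). The call of CYR61 was lost with any 1 of the 6 libraries left out (adjusted p up to 0.178). That of SPP1 was lost without LIS1+/- replicate 1 or 2 or LIS1+/+ replicate 1 or 2 (up to 0.0842).

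Of 36 tested collagens and basement membrane genes, 2 passed, both fibrillar collagens best known from cartilage. COL2A1 had 34.1, 28.4 and 36.8 CPM in LIS1+/- hESC, against 13.8, 12.7 and 12.4 CPM in LIS1+/+ hESC, with the groups far apart (2.54-fold, 1.34 ± 0.24, adjusted p = 0.00526). COL11A1 had 36.6, 36.97 and 43.6 CPM in LIS1+/- hESC, against 13.8, 20.7 and 12.4 CPM in LIS1+/+ hESC (2.53-fold, 1.34 ± 0.28, adjusted p = 0.0223, lost without LIS1+/- replicate 2 or 3 or LIS1+/+ replicate 1 or 3, adjusted p up to 0.158). In 15 of the 36 members all LIS1+/- libraries lay above and in 2, COL1A1 and COL9A3, all lay below (10.6% and 7.69% of all tested genes). The median was 0.34. TIMP3, an inhibitor of matrix metalloproteinases, had 20.2, 28.4 and 38.6 CPM in LIS1+/- hESC, against 9.05, 16.7 and 6.21 CPM in LIS1+/+ hESC (2.80-fold, 1.49 ± 0.35, adjusted p = 0.0480). Its call was lost without LIS1+/- replicate 2 or 3 or LIS1+/+ replicate 1 or 3 (adjusted p up to 0.328). Of the 12 tested markers of mesenchyme and mesoderm 0 passed, and their summed level was 6651, 6754 and 6765 CPM in LIS1+/- and 5115, 5035 and 4943 CPM in LIS1+/+ hESC. Most of that sum was vimentin, with 6493, 6625 and 6633 CPM in LIS1+/- hESC, against 5047, 4964 and 4857 CPM in LIS1+/+ hESC, which stem cells also express. TWIST1 had 95.97, 80.7 and 75.4 CPM in LIS1+/- hESC, against 22.4, 28.1 and 24.2 CPM in LIS1+/+ hESC (1.76 ± 0.54, adjusted p = 0.212), while HAND1, HAND2 and LUM had no count in either group and DCN 0 and 1. The part of such cells in the result was not tested.

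**Figure D2:**
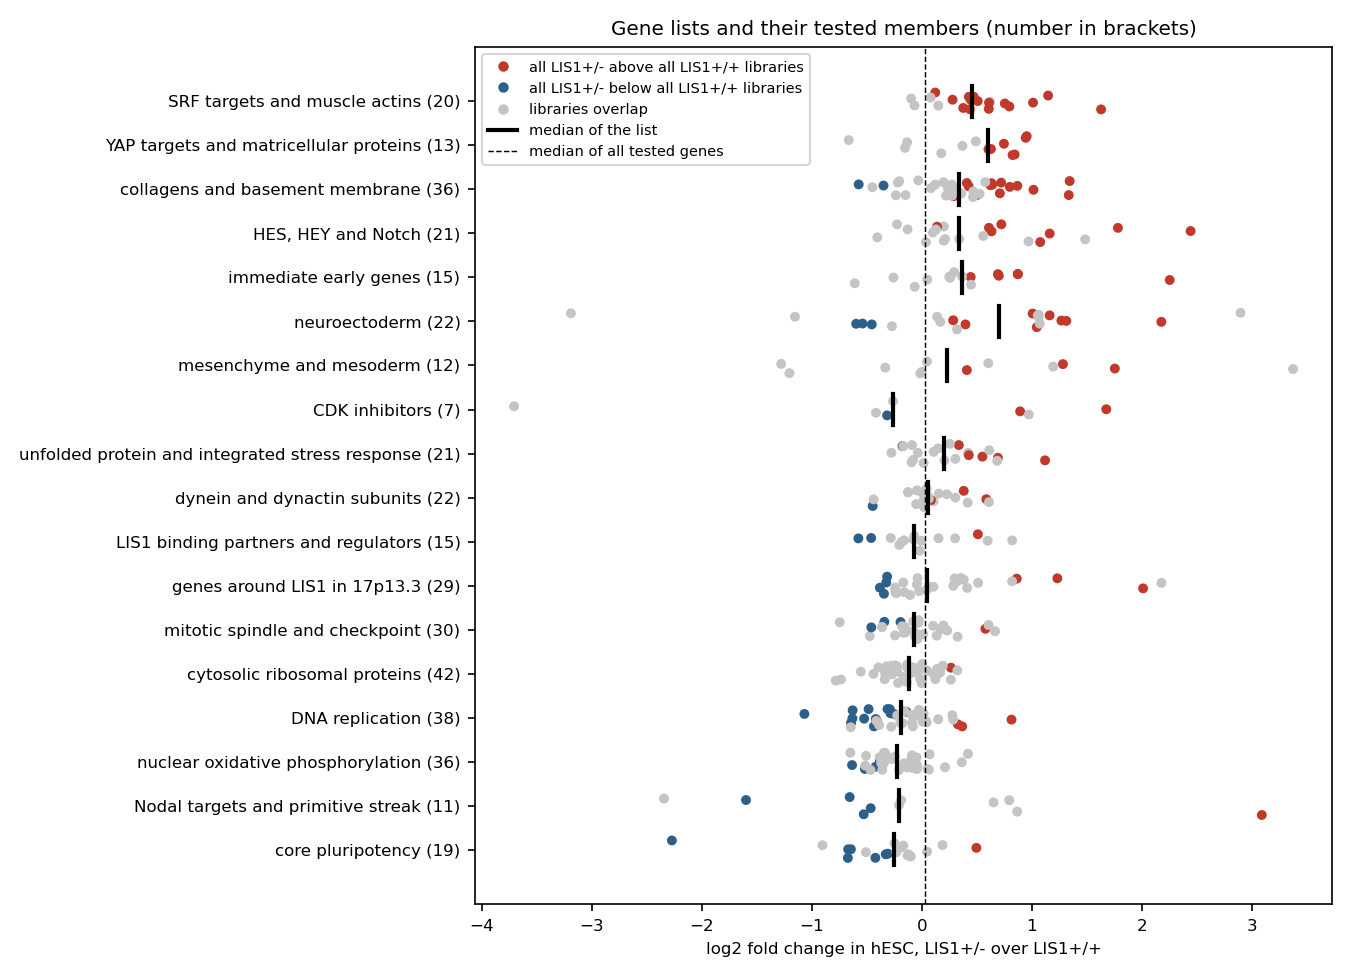
Log2 fold change in hESC, LIS1+/- over LIS1+/+ (x axis), of the tested members of 18 gene lists (rows, number tested in brackets). Red members have all 3 LIS1+/- libraries above all 3 LIS1+/+ libraries, blue ones all below, and black bars are list medians, 0.46 for SRF targets and -0.25 for core pluripotency.

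HES4, a transcriptional repressor of the HES family, which act downstream of Notch, was the gene of at least 10 CPM with the largest fold among the higher calls. It had 94.1, 68.97 and 55.2 CPM in LIS1+/- hESC, against 6.67, 21.4 and 13.04 CPM in LIS1+/+ hESC, so that even the lowest LIS1+/- library was above the highest LIS1+/+ one (5.44-fold, 2.44 ± 0.39, adjusted p = 0.00526). Of 21 tested HES, HEY and Notch genes it was the 1 that passed. In 8 of them all LIS1+/- libraries lay above and in 0 below (10.6% and 7.69% of all tested genes), with a median of 0.34. With the GC trend removed these counts were 7 and 1 (8.86% and 9.34% of all genes). HES1 had 98.5, 80.7 and 79.7 CPM in LIS1+/- hESC, against 62.4, 55.4 and 47.8 CPM in LIS1+/+ hESC (0.63 ± 0.18, adjusted p = 0.131), the receptor gene NOTCH3 160.4, 167 and 186 CPM in LIS1+/- hESC, against 132, 102 and 76.3 CPM in LIS1+/+ hESC (0.72 ± 0.22, adjusted p = 0.174), and ID4, an inhibitor of basic helix-loop-helix factors, 6.31, 4.51 and 3.97 CPM in LIS1+/- hESC, against 0.476, 1.34 and 2.48 CPM in LIS1+/+ hESC (1.78 ± 0.58, adjusted p = 0.213).

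Genes of the early nervous system were among the higher calls too. DLK1, an imprinted membrane protein related to Notch ligands, had 189, 138 and 166 CPM in LIS1+/- hESC, against 66.7, 64.8 and 66.4 CPM in LIS1+/+ hESC (2.49-fold, 1.32 ± 0.24, adjusted p = 0.0107). SIX3, a homeobox gene of the anterior neural plate and eye field, had 129, 113 and 135 CPM in LIS1+/- hESC, against 52.9, 65.5 and 64.6 CPM in LIS1+/+ hESC (2.06-fold, 1.05 ± 0.22, adjusted p = 0.0214). They were the 2 called of 22 tested neuroectoderm markers, whose median was 0.70, or 0.49 without LIS1+/+ replicate 3. The summed level of the 22 was 2705, 2618 and 2484 CPM in LIS1+/- and 2115, 2119 and 1996 CPM in LIS1+/+ hESC. DLK1 and SIX3 made up the smaller part of that gap. Of the 22 values 16 were positive, and the range was -3.19 to 2.9. In 8 of the 22 all LIS1+/- libraries lay above, and in 3, NCAM1, SOX11 and OTX2, all lay below (10.6% and 7.69% of all tested genes). DPYSL5, which acts in the outgrowth of neurites, had 216, 222 and 229 CPM in LIS1+/- hESC, against 110.0, 118 and 118 CPM in LIS1+/+ hESC (1.93-fold, 0.95 ± 0.15, adjusted p = 0.00225). ADGRG1, an adhesion receptor needed for the folding of the human cortex, had 18.3, 18.03 and 9.38 CPM in LIS1+/- hESC, against 3.81, 5.34 and 5.59 CPM in LIS1+/+ hESC (3.06-fold, 1.61 ± 0.35, adjusted p = 0.0268). The call of DLK1 was lost without LIS1+/- replicate 1 or 3 or LIS1+/+ replicate 1, 2 or 3 (adjusted p up to 0.0620), that of ADGRG1 without LIS1+/- replicate 1 or 2 or LIS1+/+ replicate 1, 2 or 3 (up to 0.171), and that of SIX3 with any 1 library left out (up to 0.138). The calls of DLK1 and ADGRG1 were also lost with the GC trend removed, that of DLK1 without the library that stands apart at each of the 3 stages, and that of ADGRG1 with only hESC libraries fitted. Neural crest markers lay at summed levels of 251.5 to 320.1 CPM in LIS1+/- and 195.2 to 220.4 CPM in LIS1+/+ hESC, with 0 of 14 called, 6 of 14 positive and a median of 0. TWIST1, also on the mesenchyme list, and NGFR made up most of that gap. NGFR had 29.5 ± 4.39 CPM in LIS1+/- and 10.96 ± 6.77 CPM in LIS1+/+ hESC (SD, n = 3 each, 1.39 ± 0.42, adjusted p = 0.173).

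PCDHB2, a clustered protocadherin of cell contacts, was 3.47-fold higher, with 36.6, 22.99 and 34.6 CPM in LIS1+/- hESC, against 10, 8.02 and 8.69 CPM in LIS1+/+ hESC (1.80 ± 0.29, adjusted p = 0.00225). It was the 1 called of 8 tested clustered protocadherins, which resemble each other in sequence. LYPD1, a Ly6-family protein that modulates nicotinic receptors, had 66.3, 68.1 and 66.7 CPM in LIS1+/- hESC, against 26.7, 25.4 and 26.1 CPM in LIS1+/+ hESC, with little spread in either group (2.57-fold, 1.36 ± 0.23, adjusted p = 0.00308). REC8, a cohesin subunit of meiosis, had 136, 116 and 141 CPM in LIS1+/- hESC, against 67.1, 47.4 and 56.5 CPM in LIS1+/+ hESC (2.29-fold, 1.19 ± 0.21, adjusted p = 0.00526). The signalling receptor gene S1PR3, which binds sphingosine-1-phosphate, had 41.04, 36.97 and 41.1 CPM in LIS1+/- hESC, against 9.05, 19.4 and 20.5 CPM in LIS1+/+ hESC (2.48-fold, adjusted p = 0.0131, lost without LIS1+/- replicate 3 or LIS1+/+ replicate 1, up to 0.118).

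Of 45 tested WNT pathway genes, 1 passed. The WNT receptor gene FZD1 had 6.31, 10.4 and 7.21 CPM in LIS1+/- hESC, against 1.90, 1.34 and 2.48 CPM in LIS1+/+ hESC (4.11-fold, 2.04 ± 0.41, adjusted p = 0.0140, lost without LIS1+/- replicate 2 or LIS1+/+ replicate 1 or 2, up to 0.110). Outside that list, 2 inhibitors of the pathway also passed. CTNNBIP1, which keeps beta-catenin from TCF factors, had 148, 131 and 143 CPM in LIS1+/- hESC, against 75.2, 62.8 and 62.7 CPM in LIS1+/+ hESC (2.09-fold, 1.07 ± 0.17, adjusted p = 0.00308), and the secreted antagonist SFRP4 100.4, 92.4 and 97.7 CPM in LIS1+/- hESC, against 40.95, 41.4 and 39.7 CPM in LIS1+/+ hESC (2.38-fold, adjusted p = 0.0447, lost with any 1 library left out, up to 0.223). The beta-catenin gene CTNNB1 had 182, 248 and 161 CPM in LIS1+/- hESC, against 339, 255 and 346 CPM in LIS1+/+ hESC, with LIS1+/- below in every library (-0.67 ± 0.18, adjusted p = 0.102). Among 15 tested immediate early genes 0 passed. In 6 of them all LIS1+/- libraries lay above and in 0 below (10.6% and 7.69% of all tested genes), with a median of 0.37. JUN had 93.4, 84.3 and 84.8 CPM in LIS1+/- hESC, against 59.5, 46.1 and 36.6 CPM in LIS1+/+ hESC (0.87 ± 0.21, adjusted p = 0.0587).

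CDKN2A (chr9:21967753-21995301, minus strand), whose transcripts encode the cell cycle inhibitors p16INK4a and p14ARF, had 237, 232 and 243 CPM in LIS1+/- hESC, against 76.2, 80.2 and 65.8 CPM in LIS1+/+ hESC. The libraries of a group lay close together and the groups were 3.20-fold apart (1.68 ± 0.23, adjusted p = 0.000579). The counts are per gene and do not separate its transcripts. It was the 1 called of 7 tested CDK inhibitors, whose median was -0.26 with 3 of 7 values positive. In 2 of the 7, CDKN2A and CDKN1C, all LIS1+/- libraries lay above and in 1 below (10.6% and 7.69% of all tested genes). CDKN1C, an imprinted member, had 65.7, 73.5 and 60.6 CPM in LIS1+/- hESC, against 30.5, 42.8 and 34.8 CPM in LIS1+/+ hESC (0.89 ± 0.22, adjusted p = 0.0630). MTAP, the tested gene next to CDKN2A, had 39.1, 33.8 and 32.8 CPM in LIS1+/- hESC, against 35.7, 43.4 and 34.1 CPM in LIS1+/+ hESC (-0.10 ± 0.29), and KLHL9, an adaptor of a ubiquitin ligase that acts in mitosis and the next called gene on that side, 41.7, 34.3 and 50.1 CPM in LIS1+/- hESC, against 17.1, 16.03 and 24.2 CPM in LIS1+/+ hESC (2.21-fold, adjusted p = 0.0186, lost without LIS1+/- replicate 3 or LIS1+/+ replicate 1 or 2, up to 0.178).

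Among the genes that fell, POLE4 and DUT act in DNA replication. POLE4, a small subunit of DNA polymerase epsilon, had 84.6, 75.3 and 76.1 CPM in LIS1+/- hESC, against 198, 136 and 159 CPM in LIS1+/+ hESC (2.10-fold lower, -1.07 ± 0.18, adjusted p = 0.00308). DUT, the dUTPase, had 167, 176 and 189 CPM in LIS1+/- hESC, against 293, 252 and 372 CPM in LIS1+/+ hESC (1.72-fold lower, adjusted p = 0.0414, lost without LIS1+/- replicate 1, 2 or 3 or LIS1+/+ replicate 1 or 3, up to 0.273). Of 38 tested DNA replication genes POLE4 was the 1 that passed, and the median was -0.19. In 14 all LIS1+/- libraries lay below and in 3 above (7.69% and 10.6% of all tested genes). With the GC trend removed 16 lay below (9.34% of all genes). CDC45 of the replicative helicase had 61.2, 55.4 and 59.5 CPM in LIS1+/- hESC, against 82.4, 82.8 and 107 CPM in LIS1+/+ hESC (-0.63 ± 0.17, adjusted p = 0.117).

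Of 19 tested core pluripotency genes 0 passed. In 7 of them (CD9, GDF3, TDGF1, DNMT3B, TERF1, L1TD1 and ESRG) all LIS1+/- libraries lay below and in 1, SALL4, above. Of all tested genes 7.69% lay below and 10.6% above in this way. The median of the 19 was -0.25. The tetraspanin gene CD9 had 298, 289 and 303 CPM in LIS1+/- hESC, against 476, 441 and 475 CPM in LIS1+/+ hESC (-0.64 ± 0.16, adjusted p = 0.0744). GDF3, a TGF-beta family ligand, had 3.79, 4.96 and 2.89 CPM in LIS1+/- hESC, against 18.1, 12.7 and 25.4 CPM in LIS1+/+ hESC (-2.27 ± 0.68, adjusted p = 0.170), and the Nodal co-receptor gene TDGF1 889.6, 846 and 709 CPM in LIS1+/- hESC, against 1268, 1159 and 1460.5 CPM in LIS1+/+ hESC (-0.67 ± 0.22, adjusted p = 0.221). Of 11 tested Nodal targets and primitive streak genes 0 passed. In 4 of them all LIS1+/- libraries lay below and in 1, LHX1, above (7.69% and 10.6% of all tested genes). Of the 11 values 4 were positive, and the median was -0.21. Their summed level was 734.8 to 825.8 CPM in LIS1+/- and 1036 to 1057 CPM in LIS1+/+ hESC. LEFTY1, an inhibitor of Nodal, had 229.8, 255 and 285 CPM in LIS1+/- hESC, against 410.5, 357 and 344 CPM in LIS1+/+ hESC (-0.53 ± 0.23, adjusted p = 0.383). LHX1 lay the other way, with 11.4, 5.86 and 9.02 CPM in LIS1+/- hESC, against 0.476, 2.00 and 0.621 CPM in LIS1+/+ hESC (3.09 ± 0.86, adjusted p = 0.119).

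Further lower calls fall in signalling, cell death and immunity. PIM2, a serine/threonine kinase of cell survival, had 150.3, 131 and 88.4 CPM in LIS1+/- hESC, against 340.5, 269 and 371 CPM in LIS1+/+ hESC (2.67-fold lower, -1.42 ± 0.20, adjusted p = 0.000579). TNFRSF10B, a death receptor for TRAIL, had 32.8, 27.9 and 26.7 CPM in LIS1+/- hESC, against 72.4, 58.1 and 58.97 CPM in LIS1+/+ hESC (2.19-fold lower, adjusted p = 0.0107). It was the 1 called of 16 tested p53 targets and death receptors. IFITM1, an interferon-induced membrane protein that restricts viral entry, had 253, 254 and 229.7 CPM in LIS1+/- hESC, against 551, 499 and 452 CPM in LIS1+/+ hESC (2.04-fold lower, -1.03 ± 0.21, adjusted p = 0.0187), and it resembles its neighbours IFITM2 and IFITM3 in sequence. LGALS1, galectin-1, which binds beta-galactosides, had 6.31, 10.8 and 8.66 CPM in LIS1+/- hESC, against 31.4, 29.4 and 28.6 CPM in LIS1+/+ hESC (3.41-fold lower, adjusted p = 0.0107). MDFI, which holds myogenic factors inactive, had 70.1, 56.4 and 62.03 CPM in LIS1+/- hESC, against 115, 131 and 109 CPM in LIS1+/+ hESC (1.89-fold lower, adjusted p = 0.00648). The potassium channel gene KCNK12 had 5.05, 10.8 and 15.5 CPM in LIS1+/- hESC, against 52.4, 50.1 and 39.1 CPM in LIS1+/+ hESC (4.31-fold lower, adjusted p = 0.0394). Calls were lost for TNFRSF10B without LIS1+/- replicate 2 or 3 or LIS1+/+ replicate 1 (adjusted p up to 0.104), IFITM1 without LIS1+/- replicate 1, 2 or 3 or LIS1+/+ replicate 1 or 2 (up to 0.148), LGALS1 without LIS1+/- replicate 1 or 3 or LIS1+/+ replicate 1 (up to 0.0848), MDFI without LIS1+/- replicate 2 or 3 (up to 0.0660) and KCNK12 with any 1 library left out (up to 0.155).

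In a few genes the counts of 1 group were at or near 0. TCEAL5, an X-linked gene of the TCEAL family, had 0 counts in the 3 LIS1+/- libraries and 34 over the 3 LIS1+/+ libraries, at least 14.3-fold lower when the LIS1+/- group is set to a floor of 3 counts in all (adjusted p = 0.00503). With only the hESC libraries fitted it was not among the calls, and at these counts it falls under the filter of that fit. NPFFR2, the receptor of neuropeptide FF, had 0 counts against 44, at least 18.5-fold lower (adjusted p = 0.0131). It also had 0 counts in all 6 LIS1+/- organoid libraries, where LIS1+/+ had 0 counts at Day 5 and 5 at Day 12. LINC01108, a long non-coding RNA, had 1.89, 2.70 and 3.97 CPM in LIS1+/- hESC, against 40.95, 36.7 and 26.7 CPM in LIS1+/+ hESC (11.6-fold lower, adjusted p = 0.0286). DOK7, an adaptor of the muscle kinase MuSK, had 49 counts against 2, a ratio of 19.4 with a 95% counting interval of 5.09 to 165 (adjusted p = 0.0432). Such intervals and floors cover counting error only. The calls of DOK7 and LINC01108 were lost with any 1 library left out (adjusted p up to 0.209 and 0.155), and that of NPFFR2 without LIS1+/- replicate 1, 2 or 3 or LIS1+/+ replicate 1 or 3 (up to 0.111).

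The other genes called higher include signalling and neuronal proteins. PDGFB, a ligand of the PDGF receptors, had 27.1, 24.8 and 28.9 CPM in LIS1+/- hESC, against 8.57, 7.35 and 4.97 CPM in LIS1+/+ hESC (3.82-fold, 1.93 ± 0.44, adjusted p = 0.0372). LRRC4B, an adhesion protein of synapses, had 13.9, 22.1 and 18.4 CPM in LIS1+/- hESC, against 6.67, 1.34 and 6.83 CPM in LIS1+/+ hESC (3.55-fold, 1.83 ± 0.39, adjusted p = 0.0286). SH2D3C, an adaptor of integrin and Eph signalling, had 42.9, 54.5 and 56.3 CPM in LIS1+/- hESC, against 12.9, 16.03 and 24.8 CPM in LIS1+/+ hESC (2.90-fold, 1.54 ± 0.27, adjusted p = 0.00526). The groups did not overlap in these 3 genes, all of them low in LIS1+/+ hESC. The transcriptional repressor gene BACH2 had 10.1, 5.41 and 7.57 CPM in LIS1+/- hESC, against 0.476, 2.00 and 1.24 CPM in LIS1+/+ hESC (adjusted p = 0.0181). PIK3R3, a regulatory subunit of PI3 kinase, had 35.99, 54.5 and 45.8 CPM in LIS1+/- hESC, against 29.05, 20.04 and 21.1 CPM in LIS1+/+ hESC (1.93-fold, adjusted p = 0.0480). RILPL1, which acts in protein export from cilia, had 22.7, 22.5 and 25.97 CPM in LIS1+/- hESC, against 8.09, 10.7 and 13.7 CPM in LIS1+/+ hESC (2.23-fold, adjusted p = 0.0347). Left-out libraries ended the calls of PDGFB (without LIS1+/- replicate 1, 2 or 3 or LIS1+/+ replicate 1, 2 or 3, adjusted p up to 0.231), LRRC4B (without LIS1+/- replicate 2 or 3 or LIS1+/+ replicate 1, 2 or 3, up to 0.148), SH2D3C (without LIS1+/+ replicate 1, 0.0673), BACH2 (without LIS1+/- replicate 1 or 3 or LIS1+/+ replicate 1 or 3, up to 0.147), PIK3R3 (without LIS1+/- replicate 2 or 3 or LIS1+/+ replicate 1, 2 or 3, up to 0.237) and RILPL1 (without LIS1+/- replicate 1, 2 or 3 or LIS1+/+ replicate 1 or 2, up to 0.206). ZNF667, FAM210B, LOC728392, TTC3, CREB3 and FJX1 complete the 36 and are plotted among the called genes. The calls of CREB3 and FAM210B were lost with any 1 library left out (adjusted p up to 0.216 and 0.210), and of the 7 other alternatives they passed in 3 and 2. The other calls were lost for ZNF667 without LIS1+/- replicate 2 or LIS1+/+ replicate 2 or 3 (up to 0.0794), LOC728392 without LIS1+/- replicate 2 or 3 or LIS1+/+ replicate 1 or 2 (up to 0.108), TTC3 without LIS1+/- replicate 2 or 3 or LIS1+/+ replicate 1, 2 or 3 (up to 0.148) and FJX1 without LIS1+/- replicate 1, 2 or 3 or LIS1+/+ replicate 1 or 2 (up to 0.179).

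The other genes called lower include SYT11, a synaptotagmin of vesicle traffic, with 1.89, 2.70 and 2.52 CPM in LIS1+/- hESC, against 12.4, 8.02 and 9.93 CPM in LIS1+/+ hESC (4.17-fold lower, -2.06 ± 0.41, adjusted p = 0.0132). ATG3, the enzyme that attaches LC3 to lipid in autophagy, had 82.1, 67.6 and 68.5 CPM in LIS1+/- hESC, against 109, 138 and 160.1 CPM in LIS1+/+ hESC (1.87-fold lower, -0.90 ± 0.20, adjusted p = 0.0326). STARD7, a carrier of phosphatidylcholine to mitochondria, had 278, 350.3 and 283 CPM in LIS1+/- hESC, against 455, 466 and 601 CPM in LIS1+/+ hESC (1.67-fold lower, adjusted p = 0.0306). RPS10, a protein of the small ribosomal subunit, was the most abundant of the 24, with 2402, 2651 and 2328 CPM in LIS1+/- hESC, against 4103, 3247 and 3734 CPM in LIS1+/+ hESC (-0.59 ± 0.14, adjusted p = 0.0452). It has many processed copies in the genome, so its level is uncertain. EEPD1, an endonuclease-family protein, had 2.53, 0.902 and 1.08 CPM in LIS1+/- hESC, against 4.29, 8.68 and 15.5 CPM in LIS1+/+ hESC (adjusted p = 0.0306). Left-out libraries ended the calls of SYT11 (without LIS1+/- replicate 1, 2 or 3 or LIS1+/+ replicate 1, adjusted p up to 0.0977), ATG3 (without LIS1+/- replicate 1, 2 or 3 or LIS1+/+ replicate 2 or 3, up to 0.211), STARD7 (without LIS1+/- replicate 1, 2 or 3 or LIS1+/+ replicate 1, 2 or 3, up to 0.218), RPS10 (without LIS1+/- replicate 1, 2 or 3 or LIS1+/+ replicate 1 or 3, up to 0.231) and EEPD1 (without LIS1+/- replicate 2 or 3 or LIS1+/+ replicate 2 or 3, up to 0.245).

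**Figure D3:**
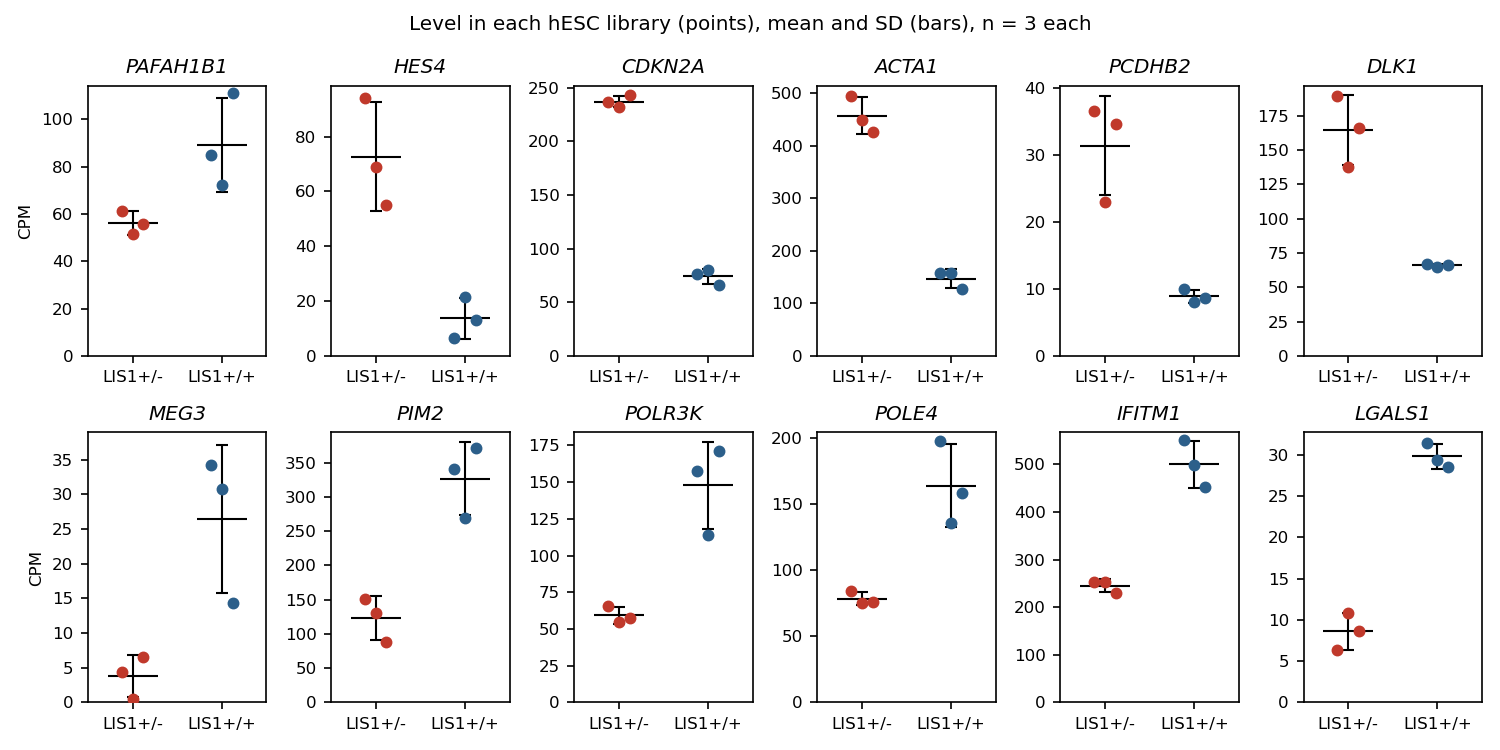
CPM in each of the 3 LIS1+/- and the 3 LIS1+/+ hESC libraries for PAFAH1B1 and 11 called genes, with the mean and SD as bars. The groups do not overlap in any panel, and CDKN2A lies at 232 to 243 CPM in LIS1+/- and 65.8 to 80.2 CPM in LIS1+/+ hESC.

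Some called genes were neighbours, at most 1 Mb apart in the GENCODE annotation of GRCh38. On chromosome X, 4 of the 6 genes called lower there lay within 225.9 kb (chrX:48897912-49123801). X had 414 tested genes, of which 1.45% were called lower and 0 higher, with a median log2 fold change of -0.04. Of all tested genes 0.196% were called lower and 0.295% higher. The 4 were PIM2, PQBP1, a splicing factor that binds polyglutamine, TFE3, a transcription factor of lysosome genes, and GPKOW, a protein of the spliceosome. PQBP1 had 80.8, 64.9 and 75.4 CPM in LIS1+/- hESC, against 131, 121 and 125 CPM in LIS1+/+ hESC (-0.77 ± 0.16, adjusted p = 0.0214), TFE3 218, 219 and 229.7 CPM in LIS1+/- hESC, against 344, 352 and 333 CPM in LIS1+/+ hESC (-0.63 ± 0.14, adjusted p = 0.0347) and GPKOW 41.04, 38.8 and 47.2 CPM in LIS1+/- hESC, against 70.5, 76.8 and 80.1 CPM in LIS1+/+ hESC (-0.83 ± 0.18, adjusted p = 0.0314). In each of the 3 the groups did not overlap. Of the 11 tested genes in this interval 10 had a negative value in hESC, 10 at Day 5 and 8 at Day 12, with medians of -0.57, -0.62 and -0.21. At Day 5, 3 of the 11 passed as lower (PIM2, TFE3 and OTUD5), and at Day 12, 3 (PQBP1, SLC35A2 and GPKOW). Of all tested genes 1.28% passed as lower at Day 5 and 1.06% at Day 12. Of the 6 nearest tested genes on the flanks 0 passed in hESC. On 1 side HDAC6 had -0.26 ± 0.18, PCSK1N 1.37 ± 0.74 and TIMM17B -0.47 ± 0.18 on the log2 scale, and TIMM17B passed as lower at Day 5 (-0.64 ± 0.17, adjusted p = 0.0480). On the other side PLP2 had -0.01 ± 0.42, PRICKLE3 -0.49 ± 0.41 and SYP 2.01 ± 0.80. The interval was chosen for its calls, so these counts describe it and carry no test. In hESC the calls of TFE3 and GPKOW were lost with any 1 library left out (adjusted p up to 0.148 and 0.155), and that of PQBP1 without LIS1+/- replicate 2 or 3 or LIS1+/+ replicate 1, 2 or 3 (up to 0.148). The calls of TFE3, GPKOW and PQBP1 were also lost with the replicate number as a block, while that of PIM2 was kept.

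**Figure D4:**
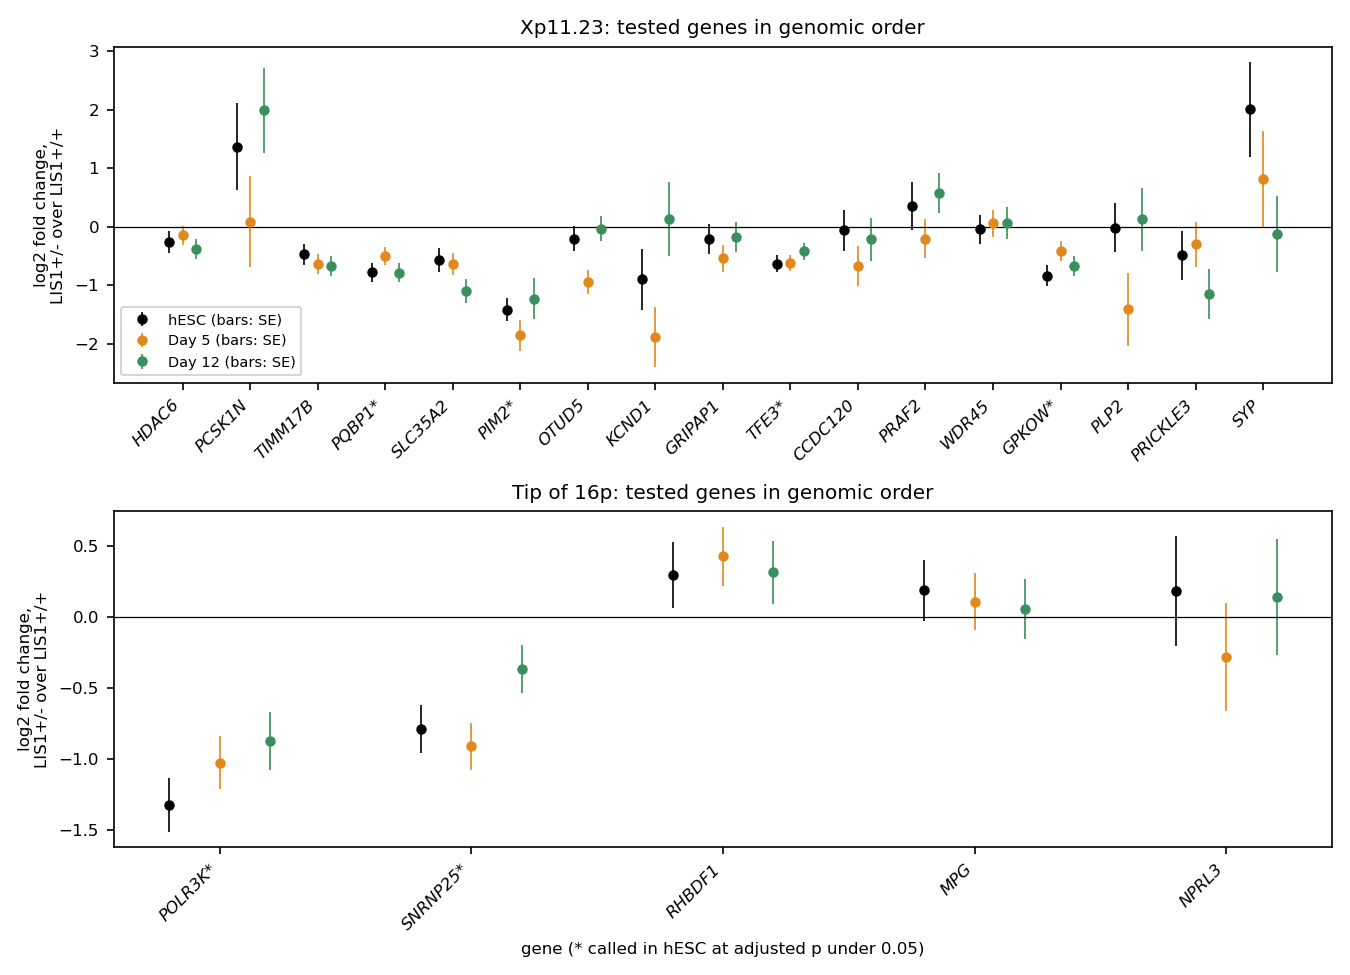
Log2 fold change, LIS1+/- over LIS1+/+ (y axis, bars are SE), at the 3 stages for tested genes in genomic order around the Xp11.23 calls (top) and the 16p calls (bottom). Genes called in hESC carry a star, and PIM2 lies at -1.42 (hESC), -1.85 (Day 5) and -1.22 (Day 12).

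At the tip of 16p, POLR3K and SNRNP25 both fell. POLR3K, the zinc-ribbon subunit of RNA polymerase III that acts in cleavage and termination, had 65.7, 54.5 and 57.7 CPM in LIS1+/- hESC, against 158, 114 and 171 CPM in LIS1+/+ hESC (2.50-fold lower, -1.32 ± 0.19, adjusted p = 0.000658). SNRNP25, a protein of the minor spliceosome, had 145, 101 and 103 CPM in LIS1+/- hESC, against 213, 176 and 211 CPM in LIS1+/+ hESC (-0.79 ± 0.17, adjusted p = 0.0223, lost without LIS1+/- replicate 2 or 3 or LIS1+/+ replicate 1 or 3, up to 0.193). The genes are divergent, and the annotated models overlap (that of POLR3K reaches 53628 and that of SNRNP25 starts at 53010). The overlap lies at the 5' ends of both genes, while the libraries read tags from 3' ends. The strand setting of the counting is unknown here, so any reads in that overlap cannot be assigned. RHBDF1, the tested gene after them, had 32.8, 38.8 and 27.05 CPM in LIS1+/- hESC, against 30.5, 28.1 and 21.1 CPM in LIS1+/+ hESC (0.30 ± 0.24). Of 13 tested subunits of RNA polymerase III, POLR3K was the 1 that passed, and the median was -0.16.

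The promoters of POLR3K and PQBP1 are printed because each start region is shared with a divergent gene whose value was also negative. The POLR3K window (chr16:53559-53858, minus strand) overlaps that of SNRNP25 by 281 bases, and the PQBP1 window (chrX:48897680-48897979, plus strand) that of TIMM17B by 261. TIMM17B had 149, 119.9 and 113 CPM in LIS1+/- hESC, against 207, 183 and 135 CPM in LIS1+/+ hESC (-0.47 ± 0.18, adjusted p = 0.290). Capitals mark CCAAT on either strand, the box bound by the factor NF-Y. The 2 last matches of PQBP1 adjoin, on opposite strands, and this window is 1 of 3 listed for PQBP1.
POLR3K: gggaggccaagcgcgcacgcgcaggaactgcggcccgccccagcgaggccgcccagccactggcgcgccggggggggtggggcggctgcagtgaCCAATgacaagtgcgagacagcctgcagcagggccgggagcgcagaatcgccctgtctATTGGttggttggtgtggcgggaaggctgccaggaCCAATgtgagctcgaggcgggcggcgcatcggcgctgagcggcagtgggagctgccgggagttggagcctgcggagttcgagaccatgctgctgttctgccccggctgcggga
PQBP1: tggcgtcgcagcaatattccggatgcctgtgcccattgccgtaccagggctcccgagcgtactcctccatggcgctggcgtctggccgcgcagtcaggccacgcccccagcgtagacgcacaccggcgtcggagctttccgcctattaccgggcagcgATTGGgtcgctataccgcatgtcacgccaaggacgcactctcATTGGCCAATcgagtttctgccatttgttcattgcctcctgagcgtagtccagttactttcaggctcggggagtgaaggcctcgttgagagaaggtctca
Each window has 3 matches. CCAAT occurs in 34.6% of all promoter windows. Counted by gene, with a match in any window, it is found for 13 of 31 genes called higher and 11 of 18 called lower, and for 43.3% of tested genes.

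In the imprinted DLK1-MEG3 domain of chromosome 14 the called genes moved in opposite directions. MEG3 (chr14:100779410-100861031, plus strand), a non-coding RNA made from the maternal copy, had 4.42, 0.451 and 6.49 CPM in LIS1+/- hESC, against 34.3, 30.7 and 14.3 CPM in LIS1+/+ hESC (6.77-fold lower, -2.76 ± 0.50, adjusted p = 0.00758, lost without LIS1+/+ replicate 1, 0.0597). DLK1 (chr14:100725705-100738224, plus strand), made from the paternal copy, was higher, as given above. MEG9, further along the domain, had 0, 0.451 and 0 CPM in LIS1+/- hESC, against 8.09, 5.34 and 1.24 CPM in LIS1+/+ hESC (adjusted p = 0.0597). WDR25, on the other side, had 37.2, 44.6 and 41.1 CPM in LIS1+/- hESC, against 22.9, 28.1 and 26.1 CPM in LIS1+/+ hESC (0.69 ± 0.29, adjusted p = 0.367). Of 18 tested imprinted genes DLK1 and MEG3 passed, 1 in each direction. On chromosome 11, ARRB1 and GDPD5 were also called in opposite directions. ARRB1, beta-arrestin 1, had 16.4, 12.6 and 12.98 CPM in LIS1+/- hESC, against 50.5, 39.4 and 49.7 CPM in LIS1+/+ hESC (3.35-fold lower, adjusted p = 0.0132). GDPD5, a glycerophosphodiesterase, had 34.7, 37.4 and 32.5 CPM in LIS1+/- hESC, against 14.8, 12.7 and 6.83 CPM in LIS1+/+ hESC (3.01-fold higher, adjusted p = 0.0214). RPS3, which lies between them, had a log2 fold change of 0.00 ± 0.17. The call of ARRB1 was lost without LIS1+/- replicate 2 or 3 or LIS1+/+ replicate 1 or 3 (up to 0.122) and that of GDPD5 with any 1 library left out (up to 0.171).

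The organoid libraries show which of the 60 differences were also seen after differentiation. At Day 5, where 1.95% of all tested genes passed, 0.671% as higher and 1.28% as lower, 16 of the 60 passed in the direction seen in hESC, 6 of the 36 higher and 10 of the 24 lower. At Day 12, where 1.4% passed, 0.336% as higher and 1.06% as lower, 14 did, 5 higher and 9 lower. The 36 genes had a median log2 fold change of 1.33 as hESC, of 0.17 at Day 5 and of 0.14 at Day 12. For the 24 genes it was -1.11, -0.60 and -0.72 at those stages, and in hESC it is the same with TCEAL5 and NPFFR2 at their bounds. The genes were chosen by their hESC difference and not by their organoid difference. The organoid libraries did enter the filter, the scaling and the estimate of spread behind the hESC calls. With only hESC libraries fitted, 52 of the 60 passed. All libraries come from the same 2 genotypes of 1 line. Of the lists described above, SRF targets had 0 of 20 members called at either organoid stage. YAP targets and matricellular proteins had 3 of 13 called higher at Day 5 and 1 called lower at Day 12. Core pluripotency genes had 8 of 19 called lower at Day 5 and 3 at Day 12, and Nodal targets and primitive streak genes 5 of 11 and 1. Neuroectoderm markers had 4 of 22 called higher at Day 5 and 2 called lower at Day 12, and collagens and basement membrane genes 2 of 36 and 7 called lower. Neural crest markers had 7 of 14 called lower at Day 12.

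At all 3 stages 8 of the 60 passed in 1 direction: CDKN2A and PCDHB2 higher, and MEG3, POLR3K, POLE4, PIN4, TNFRSF10B and TCEAL5 lower. CDKN2A at Day 5 had 55.7, 21.6 and 31.3 CPM in LIS1+/- organoids, against 6.75, 7.44 and 4.51 CPM in LIS1+/+ organoids, and at Day 12 12.98, 17.9 and 18.5 CPM in LIS1+/- organoids, against 1.29, 1.26 and 0.487 CPM in LIS1+/+ organoids. Its level was lower than in hESC in both genotypes while its log2 fold change was 2.53 ± 0.28 (adjusted p = 2.15e-06) and 4.06 ± 0.50 (adjusted p = 4.14e-05). The LIS1+/+ libraries were near 0 at Day 12, so the size of 4.06 rests on a few counts. MEG3 at Day 5 had 5.23, 5.12 and 4.39 CPM in LIS1+/- organoids, against 28.2, 53.6 and 48.7 CPM in LIS1+/+ organoids, and at Day 12 1.24, 0.854 and 0.285 CPM in LIS1+/- organoids, against 30.4, 10.7 and 19.9 CPM in LIS1+/+ organoids (-4.76 ± 0.65, adjusted p = 0.000193). The groups did not overlap at either day. The LIS1+/- libraries were near 0 at Day 12, so the size of -4.76 rests on a few counts. POLR3K at Day 5 had 50.1, 47.9 and 48.9 CPM in LIS1+/- organoids, against 94.5, 103 and 102 CPM in LIS1+/+ organoids (-1.03 ± 0.19, adjusted p = 0.00197). TCEAL5 at Day 5 had 0.374, 0 and 0.293 CPM in LIS1+/- organoids, against 23.2, 29.97 and 25.03 CPM in LIS1+/+ organoids, and at Day 12 0.618, 0.569 and 0 CPM in LIS1+/- organoids, against 14.2, 22.6 and 34.5 CPM in LIS1+/+ organoids. The LIS1+/- libraries were at or near 0 at every stage. PIN4, a peptidyl-prolyl isomerase of the parvulin family, had 102, 80.2 and 54.1 CPM in LIS1+/- hESC, against 169, 121 and 205 CPM in LIS1+/+ hESC (-1.08 ± 0.20, adjusted p = 0.00991, lost without LIS1+/- replicate 2 or 3 or LIS1+/+ replicate 1 or 3, up to 0.122), and its values were -0.86 ± 0.20 at Day 5 and -0.86 ± 0.21 at Day 12. PIN4, like DUT, has processed copies in the genome, so its level is uncertain.

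For 18 of the 60 genes the genotype effect differed between hESC and an organoid stage by the test of that difference, 11 at Day 5 (0.573% of all genes) and 10 at Day 12 (0.377%), with 3 at both: CTNNBIP1, DLK1 and FLNC. These comparisons share the hESC libraries that made the calls. HES4 at Day 5 had 575, 301 and 555 CPM in LIS1+/- organoids, against 597, 587 and 609.8 CPM in LIS1+/+ organoids, at a level far above that of hESC. The LIS1+/- libraries lay below the LIS1+/+ ones, the lowest by far LIS1+/- replicate 2, without passing (-0.32 ± 0.29, adjusted p = 0.752). The effect differed from that in hESC by -2.77 ± 0.49 (adjusted p = 0.00973). DLK1 at Day 12 had 423, 416 and 363 CPM in LIS1+/- organoids, against 696, 1228 and 1580.0 CPM in LIS1+/+ organoids, the opposite direction to hESC (-1.54 ± 0.23, adjusted p = 0.000474). SPP1 at Day 12 had 0.618, 0.569 and 0.285 CPM in LIS1+/- organoids, against 5.82, 3.15 and 2.92 CPM in LIS1+/+ organoids, lower in LIS1+/- at a low level (-2.94 ± 0.54, adjusted p = 0.00363), whereas at Day 5 it was higher (1.08 ± 0.21, adjusted p = 0.00321). FLNC passed as lower at Day 12 (-0.85 ± 0.22, adjusted p = 0.0443). STOML3, a stomatin-like membrane protein, had 33.5, 27.05 and 17.3 CPM in LIS1+/- hESC, against 7.62, 9.35 and 6.21 CPM in LIS1+/+ hESC, and at Day 5 0.748, 0.731 and 0.878 CPM in LIS1+/- organoids, against 7.48, 5.86 and 5.41 CPM in LIS1+/+ organoids (-2.91 ± 0.52, adjusted p = 0.00159). Its call in hESC was lost without LIS1+/- replicate 1 or 2 or LIS1+/+ replicate 1, 2 or 3 (adjusted p up to 0.186). ACTA1 was near 0 in both genotypes at both organoid stages, with at most 1.29 CPM in a library, so that its organoid values (-0.41 ± 0.68 and 0.25 ± 1.03) rest on a few counts.

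**Figure D5:**
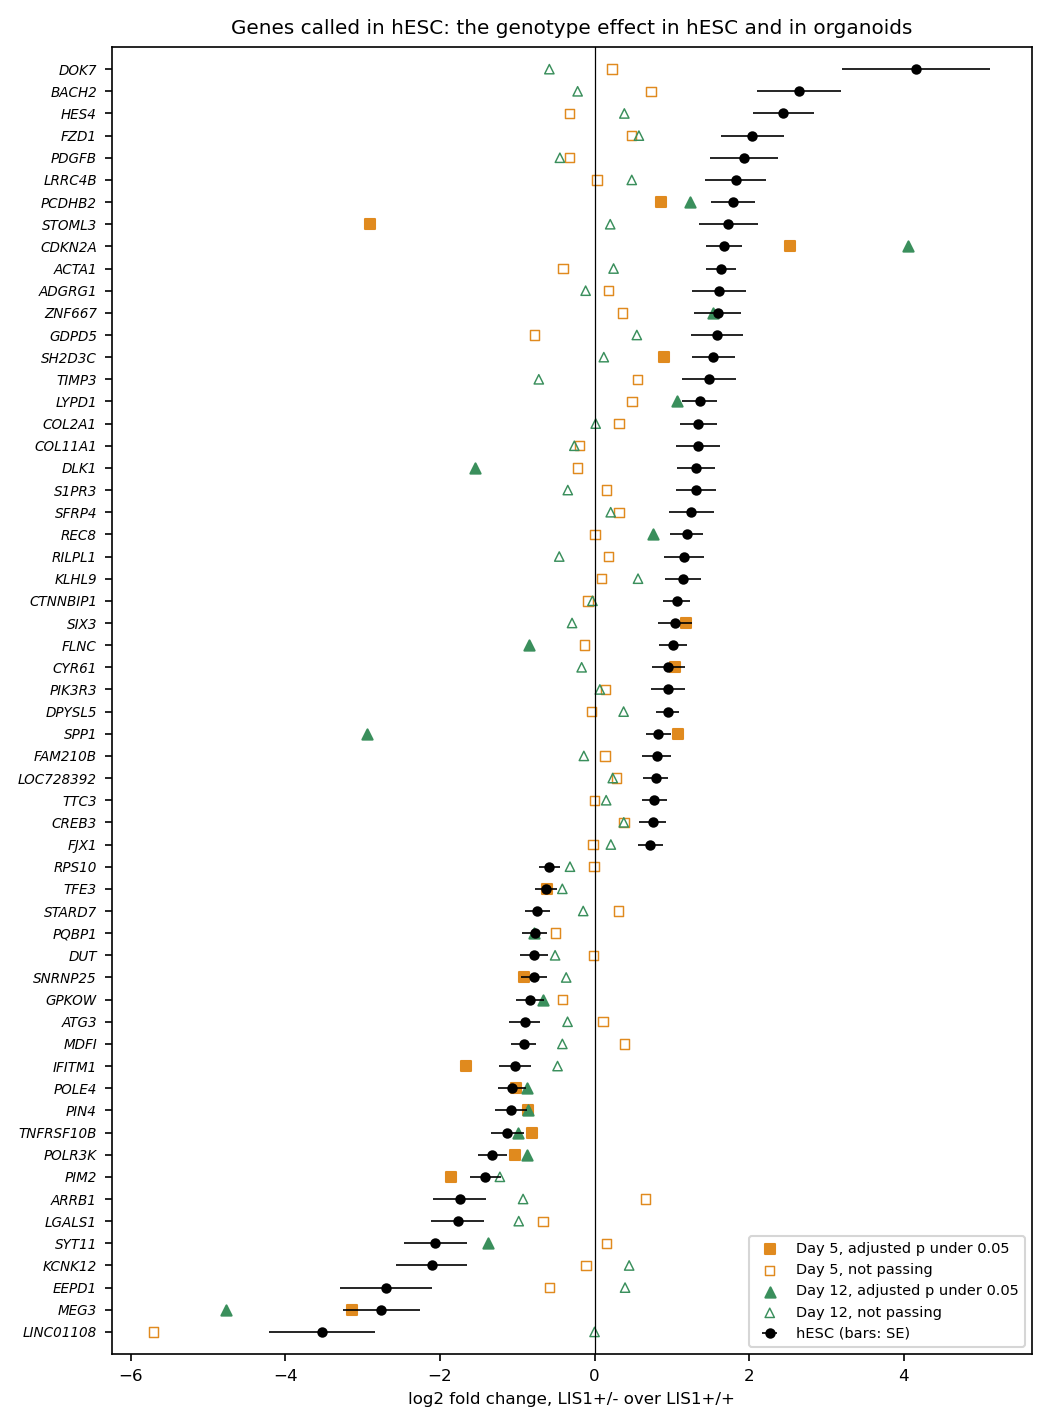
Log2 fold change, LIS1+/- over LIS1+/+ (x axis), of 58 genes called in hESC (rows), in hESC (black, bars are SE), at Day 5 (squares) and at Day 12 (triangles), filled where the stage passed. TCEAL5 and NPFFR2, at 0 counts in LIS1+/- hESC, are left out, and CDKN2A lies at 1.68, 2.53 and 4.06.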

How the data were processed

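RNA of 6 hESC libraries (3 LIS1+/-, 3 LIS1+/+) and of 12 organoid libraries was compared. Each deposited file gives an unnormalized count for every gene symbol in a library. The submitters' processing notes list cutadapt, STAR and DESeq2 among the tools, and as builds both GRCh37 and hg38, with no role for either. Versions, the use of molecular identifiers and the strand setting are not given in the sources used here. Closing rows that name no gene (54.7 to 70.6% of alignments in hESC libraries) were left out.

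Of 26485 genes, 12215 were kept by filterByExpr on the 6 groups, scaled by TMM and tested in edgeR 4.0.16 (R 4.3.3, robust quasi-likelihood F-test, two-sided) in 1 fit of 18 libraries with 12 residual degrees of freedom. Calls are genes under 0.05 after Benjamini-Hochberg adjustment, which ran over all tested genes. Alternatives were DESeq2 size factors, DESeq2 1.42.0, no filter, fitting only hESC libraries, the replicate number as a block, removal of the GC trend (last 500 transcript bases, 95.5% of tested genes with a value), and libraries left out. The GC and left-out values of list medians were chosen after seeing the data. Replicates of a group differed beyond sampling noise (chi-square per degree of freedom 3.37 to 6.42). Positions come from GENCODE 29 on GRCh38, matched by symbol for 95.3% of tested genes. The authors' build may differ.

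The comparison, the tests and the 36 gene lists were chosen with earlier results of these data known. The named genes are PAFAH1B1, the 20 largest rises and 20 largest falls among genes called with at least 10 CPM and no overlap, every called gene that passed in the same direction or differed in organoids, and at most 4 members per list, by smallest p. Some of these are counted and not printed, and 1 result is not reported here. CTGF, EDN1, ANKRD1, TAGLN, ACTB, SRF, members named only for their side or as markers, neighbours, and the calls CREB3, DOK7, EEPD1, FAM210B, FJX1, KLHL9, LOC728392, NPFFR2, PIK3R3, RPS10 and TTC3 were named after their values were seen. In simulated data the fit recovered 37% of genes changed 2-fold and 79% of those changed 4-fold in hESC, with 4.13% of calls false, over 12017 genes. The simulated counts were drawn independently, with no GC slope and no effect shared by genes of a library. The false share of the real calls may therefore differ. Figures used Matplotlib 3.10.9.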

Additional observations from a re-analysis of the deposited data

Results flagged for a closer look

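The genotype effect of 18 genes called in hESC differed between an organoid stage and hESC, by the test of that difference in the edgeR fit with Benjamini-Hochberg adjustment over all genes. Values are differences of log2 fold changes with their SE. At Day 5 minus hESC the value was negative, so that the effect was smaller or opposite in organoids, for CTNNBIP1 (-1.15 ± 0.24, with -0.09 at Day 5 and 1.07 in hESC, adjusted p = 0.0188), DLK1 (-1.54 ± 0.33, with -0.22 at Day 5 and 1.31 in hESC, adjusted p = 0.0258), DPYSL5 (-0.98 ± 0.21, with -0.04 at Day 5 and 0.95 in hESC, adjusted p = 0.0209) and FLNC (-1.14 ± 0.26, with -0.13 at Day 5 and 1.01 in hESC, adjusted p = 0.0328). The same direction was found for GDPD5 (-2.37 ± 0.45, with -0.78 at Day 5 and 1.59 in hESC, adjusted p = 0.00973), HES4 (-2.77 ± 0.49, with -0.32 at Day 5 and 2.44 in hESC, adjusted p = 0.00973) and STOML3 (-4.64 ± 0.64, with -2.91 at Day 5 and 1.73 in hESC, adjusted p = 0.000339). It was positive, for genes lower in LIS1+/- hESC, in ARRB1 (2.40 ± 0.51, with 0.66 at Day 5 and -1.75 in hESC, adjusted p = 0.0212), MDFI (1.30 ± 0.23, with 0.39 at Day 5 and -0.92 in hESC, adjusted p = 0.00348), STARD7 (1.05 ± 0.23, with 0.31 at Day 5 and -0.74 in hESC, adjusted p = 0.0265) and SYT11 (2.21 ± 0.49, with 0.16 at Day 5 and -2.06 in hESC, adjusted p = 0.0269). At Day 12 minus hESC all 10 values were negative. They were those of BACH2 (-2.87 ± 0.66, with -0.22 at Day 12 and 2.65 in hESC, adjusted p = 0.049), COL2A1 (-1.33 ± 0.30, with 0.01 at Day 12 and 1.34 in hESC, adjusted p = 0.0406), CTNNBIP1 (-1.09 ± 0.24, with -0.03 at Day 12 and 1.07 in hESC, adjusted p = 0.0375), DLK1 (-2.86 ± 0.33, with -1.54 at Day 12 and 1.31 in hESC, adjusted p = 7.44e-05) and FLNC (-1.87 ± 0.28, with -0.85 at Day 12 and 1.01 in hESC, adjusted p = 0.00142), and of RILPL1 (-1.61 ± 0.33, with -0.46 at Day 12 and 1.16 in hESC, adjusted p = 0.0214), S1PR3 (-1.66 ± 0.35, with -0.35 at Day 12 and 1.31 in hESC, adjusted p = 0.0257), SIX3 (-1.34 ± 0.30, with -0.29 at Day 12 and 1.05 in hESC, adjusted p = 0.0421), SPP1 (-3.76 ± 0.56, with -2.94 at Day 12 and 0.83 in hESC, adjusted p = 0.00138) and TIMP3 (-2.21 ± 0.47, with -0.72 at Day 12 and 1.49 in hESC, adjusted p = 0.0271). Among these, STOML3 at Day 5 and DLK1, FLNC and SPP1 at Day 12 passed as lower in LIS1+/- organoids. The number of such genes was lower when 1 hESC library was left out, as given below.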

How the results depend on the processing

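The count of 60 genes called in hESC was 206 with no filter on low counts, 131 with DESeq2, 153 with only hESC libraries fitted and 98 with the GC trend removed, and between 21 and 41 with 1 hESC library left out. It was 55 with DESeq2 size factors and 86 without the 3 libraries that stood apart (1 per stage: replicate 3 of LIS1+/+ hESC, and replicate 2 of both LIS1+/- at Day 5 and LIS1+/+ at Day 12). Of the 60, 13 passed in all 13 alternatives and 59 with DESeq2. Among the 60, the calls lost with the GC trend removed were ADGRG1, CREB3 and DLK1, with only hESC libraries fitted ADGRG1, EEPD1, FAM210B, FZD1, LOC728392, PIK3R3, RILPL1 and TCEAL5, without the 3 libraries CREB3, DLK1, DOK7, EEPD1, FAM210B, KCNK12, PDGFB, PIK3R3, STOML3 and TIMP3, with DESeq2 size factors CREB3, FAM210B, PIK3R3, SFRP4 and TIMP3, with no filter FAM210B and TFE3, and with DESeq2 LINC01108. At their counts EEPD1 and TCEAL5 fall under the filter of the fit of only hESC libraries. With the replicate number as a block the calls lost were ATG3, BACH2, COL11A1, CREB3, CYR61, EEPD1, FAM210B, FJX1, GPKOW, KCNK12, LOC728392 and LRRC4B. Also lost in this way were NPFFR2, PDGFB, PIK3R3, PQBP1, RILPL1, RPS10, SNRNP25, STARD7, STOML3, TFE3, TIMP3 and TTC3. PAFAH1B1 passed in none of the alternatives and kept its sign, between -0.80 and -0.49 with 1 library left out. Its groups did not overlap, so the kept sign says little about stability. Genes passing in the same direction at Day 5 numbered 14 to 15, and at Day 12 12 to 13, with 1 hESC library left out. Genes whose effect differed numbered 17 at Day 5 with no filter and 3 to 8 with 1 library left out. At Day 12 they numbered 19 with no filter, 18 with DESeq2, 4 with the replicate block and 4 to 7 with 1 library left out. The cause of these changes was not tested, except that leaving out a library leaves fewer samples.

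Whether the replicate numbers pair the samples is not settled. Deviations of same-numbered libraries correlated at 0.15, 0.04 and 0.02 across genes. The value of replicate 1 was the highest of any LIS1+/- and LIS1+/+ pair, while LIS1+/- replicate 3 correlated best with LIS1+/+ replicate 2 (0.09). On the second principal component (21.5% of the variance) replicate 1 lay at 23.0 in LIS1+/- and 12.6 in LIS1+/+ hESC. The remaining hESC libraries lay between -14.2 and -3.22. With the replicate number as a block, 40 genes passed, 36 of them among the 60, and PAFAH1B1 stood at -0.66. Of the list medians, that of the clustered protocadherins moved by more than the replicate SD, to 0.88 without LIS1+/+ replicate 3, against 0.36. At this depth the simulated 2-fold changes were mostly missed, so a gene that did not pass is not shown to be equal between the genotypes.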
